A study of Homo sapiens with 16 samples.

Results

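The GIMAP genes encode a family of small GTP-binding proteins of lymphocytes, and 3 of them, GIMAP4, GIMAP5 and GIMAP6, were measured on the arrays by a probe set that the annotation gives to 1 of them or to GIMAP5 together with the read-through gene GIMAP1-GIMAP5. They were chosen by the treated minus untreated level of GIMAP6, which was strongly negative, so the treatment changes below describe the choice and carry no test. Of the 22283 probe sets on the arrays, 6 belonged to these genes: 219777_at for GIMAP6, 219243_at for GIMAP4, 215353_at for GIMAP5 alone, and 215352_at, 218805_at and 64064_at, which name both GIMAP5 and GIMAP1-GIMAP5 and cannot tell these transcripts apart. All 6 are described. The other family genes, GIMAP1, GIMAP2, GIMAP7 and GIMAP8, had no probe set of their own in the annotation and were not analysed here.

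Expression was measured on 16 Affymetrix HG-U133A arrays, on which a probe set of short oligonucleotides reads the transcripts of 1 or more genes, and all levels are deposited log2 values, so a difference of 1 is a doubling. The arrays formed 4 groups of n = 4. JB6, Karpas 299, FE-PD and SU-DHL-1 derive from anaplastic large cell lymphoma (ALCL), whose cells stem from T cells. Jurkat, CCRF-CEM, Molt-4 and Molt-3 are the T-cell lines, grown from T-cell leukaemia. Each line was hybridised once untreated and once after 1 µM 5-aza-2'-deoxycytidine, a blocker of DNA methylation, for 6 days, with 625 nM trichostatin A, a blocker of histone deacetylases, during the final 24 h. No vehicle control is named, the 2 agents were given together, and a line and condition had 1 array, so the spread is that between lines and their number limits the precision. The labels used here name no donor. Every test counts each line as independent, and whether lines share a donor was not checked.

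GIMAP proteins are expressed mainly in lymphocytes and sit on membranes inside the cell. GIMAP5 is needed for the survival of resting T cells in rodents, GIMAP4 has been tied to T-cell death and cytokine release, and GIMAP6 to autophagy through binding of a GABARAP protein. Their genes form 1 cluster on chromosome 7, and in T-cell leukaemia the cluster has been described as a target of the TAL1 transcription factor complex. In the RefSeq gene order the cluster runs GIMAP8, GIMAP7, GIMAP4, GIMAP6, GIMAP2, GIMAP1, GIMAP1-GIMAP5 and GIMAP5, with REPIN1 on one side and TMEM176B and TMEM176A on the other.

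Because the treatment acts on DNA methylation, whose usual site is the CpG dinucleotide, the promoter windows of the measured genes are shown with each CpG in capitals. The windows are from RefSeq on GRCh38.p14, run from 250 bases before to 50 bases after the annotated start, and are written 5' to 3' on the gene's strand. GIMAP6 lies on the minus strand at chr7:150632336-150632635, GIMAP4 on the plus strand at chr7:150567140-150567439, and GIMAP5 on the plus strand at chr7:150737168-150737467. The window of GIMAP1-GIMAP5, the second transcript read by 218805_at and 64064_at, is the same as that of GIMAP1, on the plus strand at chr7:150716363-150716662.
GIMAP6: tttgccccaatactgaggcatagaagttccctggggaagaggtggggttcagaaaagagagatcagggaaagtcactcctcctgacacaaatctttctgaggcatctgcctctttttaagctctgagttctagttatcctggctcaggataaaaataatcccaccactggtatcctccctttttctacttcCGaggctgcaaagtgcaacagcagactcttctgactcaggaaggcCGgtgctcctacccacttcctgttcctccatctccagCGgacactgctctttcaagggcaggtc
GIMAP4: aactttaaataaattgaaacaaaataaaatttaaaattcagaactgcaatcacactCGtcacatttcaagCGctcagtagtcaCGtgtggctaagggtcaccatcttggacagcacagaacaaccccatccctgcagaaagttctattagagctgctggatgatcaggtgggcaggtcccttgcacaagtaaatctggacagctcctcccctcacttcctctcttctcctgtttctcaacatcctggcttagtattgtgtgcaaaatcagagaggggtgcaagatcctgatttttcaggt
GIMAP5: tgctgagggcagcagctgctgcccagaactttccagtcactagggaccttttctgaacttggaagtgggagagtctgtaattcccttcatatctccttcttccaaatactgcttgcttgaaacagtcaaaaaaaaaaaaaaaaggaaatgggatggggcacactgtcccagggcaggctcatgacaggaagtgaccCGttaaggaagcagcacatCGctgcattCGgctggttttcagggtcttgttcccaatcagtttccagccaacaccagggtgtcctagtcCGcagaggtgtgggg
GIMAP1-GIMAP5: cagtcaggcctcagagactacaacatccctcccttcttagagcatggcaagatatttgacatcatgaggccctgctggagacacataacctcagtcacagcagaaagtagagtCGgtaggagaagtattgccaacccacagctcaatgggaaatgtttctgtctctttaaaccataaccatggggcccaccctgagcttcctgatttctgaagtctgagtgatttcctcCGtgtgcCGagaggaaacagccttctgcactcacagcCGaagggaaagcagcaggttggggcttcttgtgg

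The 4 windows were poor in CpG. GIMAP6 and GIMAP4 each held 3 CpG dinucleotides in 300 bases, and GIMAP5 and GIMAP1-GIMAP5 held 4. The median over 35116 promoter windows of this length was 14, and 18.2% of windows held fewer than 3. The share with 3 or fewer was 24.5%, and with 4 or fewer 29.6%. The commonest count was 2 (2540 windows), so windows this poor in CpG were not rare. The family genes without a probe set held 4 (GIMAP2), 5 (GIMAP7) and 8 (GIMAP8). CpG content is a property of the reference sequence, and methylation itself was not measured here.

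**Figure D1:**
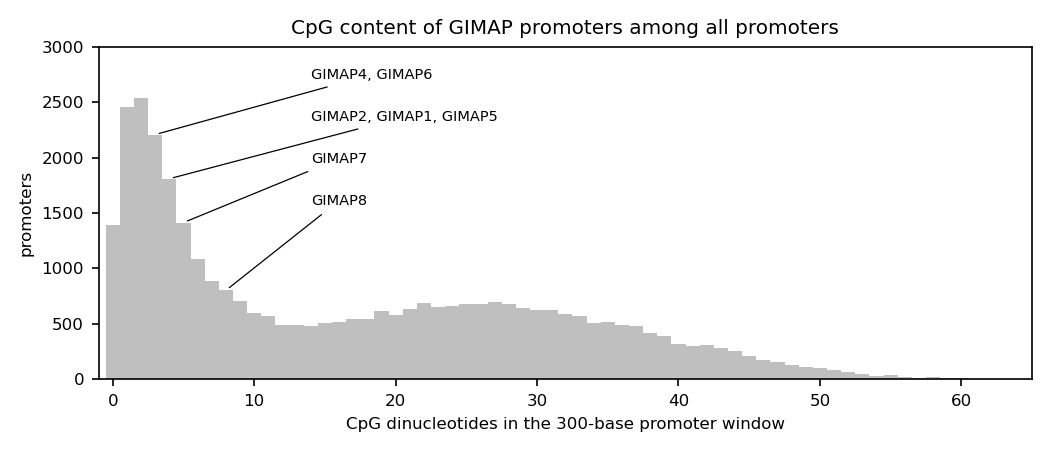
Number of promoter windows (y axis) by the number of CpG dinucleotides in the 300-base window (x axis), over 35116 RefSeq promoters, with the GIMAP genes named at their counts. GIMAP4 and GIMAP6 stand at 3 and GIMAP1, GIMAP2 and GIMAP5 at 4, below the median of 14.

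Letters of 4 transcription factor motifs were also searched on both strands of these windows. The ETS core AGGAAG was found 2 times in GIMAP6 and in GIMAP5 and 1 time in GIMAP4 and in GIMAP1-GIMAP5, and 33.6% of all windows hold it at least once. The E-box CAGCTG was found 1 time, in GIMAP5, against 17.9% of all windows with a match. The RUNX letters TGTGGT (13.1% of all windows) and the GATA letters AGATAA (10.3%) were in none of the 4. These motifs do not overlap in their letters, and the counts describe this window only. Only these exact letters were searched, so other forms of an E-box, RUNX, GATA or ETS site may be present.

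Array quality differed between lines after treatment. Array medians were between 6.78 and 6.96, but the 28S ribosomal RNA control probe set was at 12.05 to 14.26 on the treated arrays of Molt-3, Molt-4, FE-PD, SU-DHL-1 and JB6. It was at 6.81 to 8.15 on those of Jurkat, Karpas 299 and CCRF-CEM and at 6.60 to 7.62 on the untreated arrays. The SD of all values on an array was lower on the treated array in every line. It went from 1.895 to 1.597 in Molt-4, the largest change, and from 1.831 to 1.808 in FE-PD, the smallest. A narrower array can lower high values and raise low ones, and its part in the treatment differences below was not tested. The marker lists separated the labelled types in the untreated arrays. They were written with earlier results of these data known, so this is a description and no check of the labels. The 10 T-cell markers had a mean level of 9.72 to 10.42 in the T-cell lines and 6.76 to 7.40 in the ALCL lines, and the 6 ALCL markers 6.12 to 6.48 and 10.69 to 12.03. Mean levels of the B-cell (5), myeloid (5), NK-cell (4) and endothelial (6) markers lay between 5.39 and 7.42 on all arrays. These means hide the myeloid marker CSF1R, which was 2.39 ± 0.27 (SE) higher in untreated ALCL lines than in T-cell lines (limma adjusted p = 0.00197). After treatment it was 1.82 ± 0.32 higher (adjusted p = 0.0177). The ALCL line FE-PD stood apart in 1 marker: its ALK level was 6.39, in the range of the T-cell lines (6.09 to 6.40), while JB6 had 10.66, SU-DHL-1 11.10 and Karpas 299 10.00.

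GIMAP6 was high without treatment in every T-cell line and in 1 ALCL line, and low in all 8 lines after treatment. Its untreated level was 8.24 in CCRF-CEM, 8.67 in Jurkat, 8.30 in Molt-3 and 8.62 in Molt-4. Among the ALCL lines it was 8.38 in FE-PD, 4.25 in JB6, 3.95 in SU-DHL-1 and 4.75 in Karpas 299. The order from the top was Jurkat, Molt-4, FE-PD, Molt-3, CCRF-CEM, Karpas 299, JB6 and SU-DHL-1, so FE-PD stood within the range of the T-cell lines, and the gap between CCRF-CEM and Karpas 299 was far wider than any other between neighbours. With 1 array for a line and condition, no spread within a line is known.

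After treatment GIMAP6 was at 4.73 in CCRF-CEM, 4.06 in Jurkat, 5.15 in Molt-3 and 4.43 in Molt-4. It was at 4.93 in FE-PD, 4.30 in JB6, 4.18 in SU-DHL-1 and 4.19 in Karpas 299. The treated values of the 2 types overlapped, and Jurkat was the lowest of all 8 lines and Molt-3 the highest. On untreated arrays of the T-cell lines and FE-PD the probe set ranked between the 75.4th and 80.5th percentile of the array, and on all treated arrays between the 2.95th and 14.7th, a place that also depends on how brightly its own oligonucleotides bind.

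The treatment difference of GIMAP6 was -3.51 in CCRF-CEM (11.4-fold lower), -4.61 in Jurkat (24.4-fold), -3.14 in Molt-3 (8.84-fold), -4.19 in Molt-4 (18.3-fold) and -3.44 in FE-PD (10.9-fold). JB6 (0.05), SU-DHL-1 (0.23) and Karpas 299 (-0.55), which started low, showed little difference. The mean was -3.86 ± 0.66 (SD, n = 4) in the T-cell lines, 14.6-fold, and -0.93 ± 1.71 in the ALCL lines, where it was -0.09 without FE-PD. Among 11963 genes this was the third lowest change in the T-cell lines, and 0.159% of genes had a median fall of over 3 there. In single lines the change ranked 2 in Jurkat, 5 in CCRF-CEM, 6 in Molt-4, 9 in FE-PD and 27 in Molt-3. These ranks restate the choice of the gene. Detection calls were not used here, so whether the treated levels stood above background was not tested, and the folds are ratios of the deposited values as they are.

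**Figure D2:**
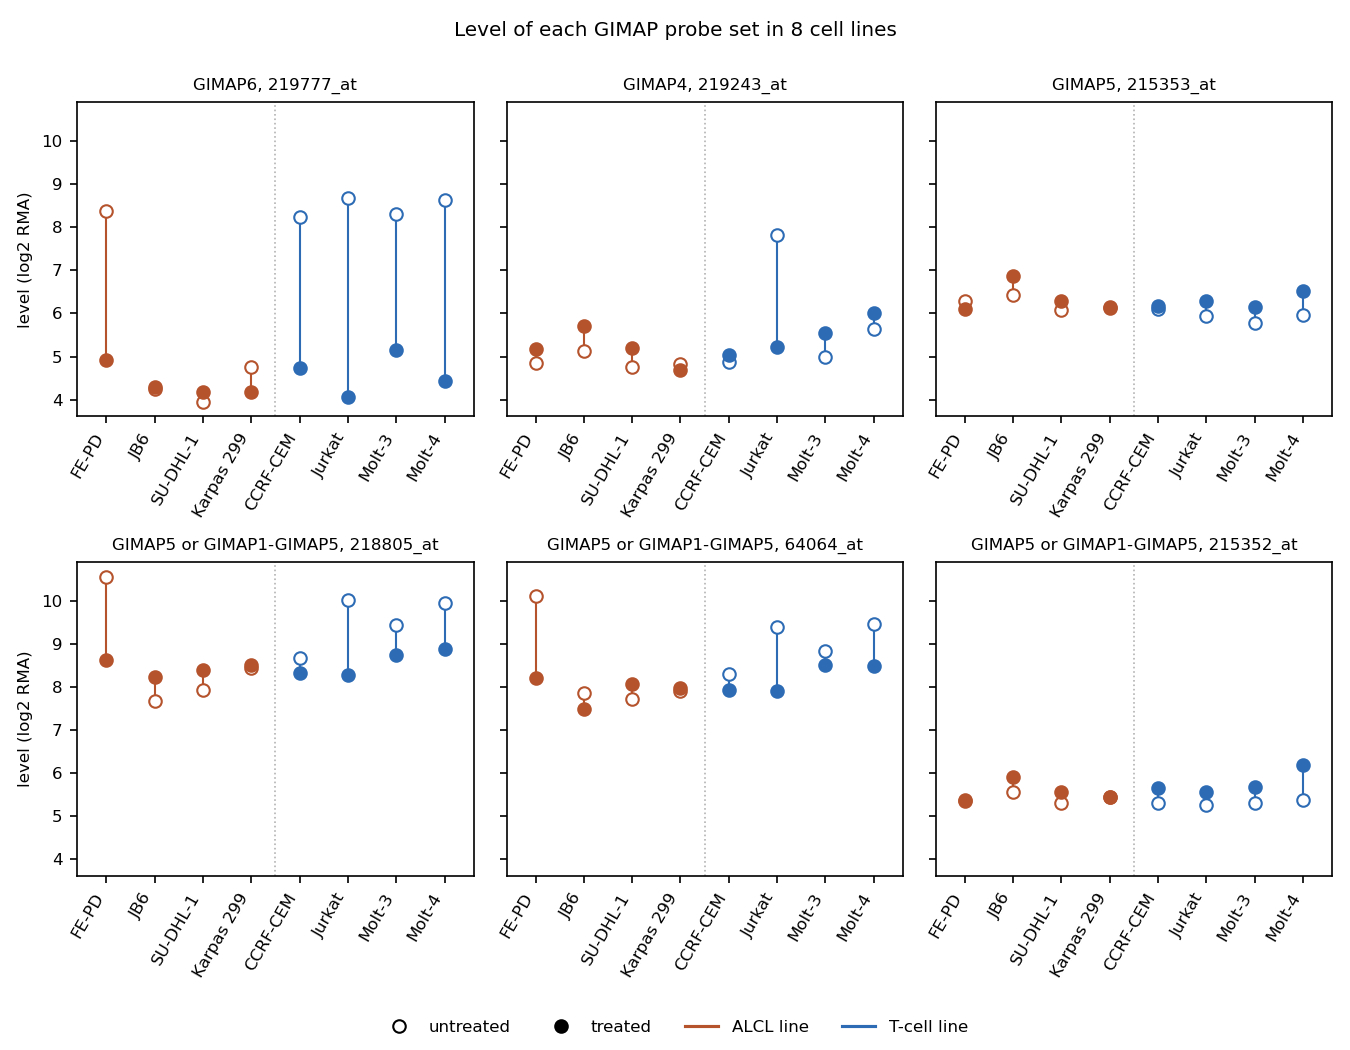
Level (log2, y axis) of each of the 6 GIMAP probe sets in 8 cell lines (x axis), 1 array per point, open circles untreated and filled circles treated, joined within a line; ALCL lines are brown and T-cell lines blue. GIMAP6 starts at 8.24 to 8.67 in the T-cell lines and at 8.38 in FE-PD and ends between 4.06 and 5.15 in all 8 lines.

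GIMAP6 was also low after treatment where the 28S control was not high. The difference was -3.51 in CCRF-CEM and -4.61 in Jurkat, whose treated 28S levels were 7.51 and 8.15, and -3.14 in Molt-3 and -4.19 in Molt-4, whose treated 28S levels were 14.26 and 14.16. In the ALCL lines the 28S level was high on the treated arrays of FE-PD, JB6 and SU-DHL-1, and a GIMAP6 difference of over 1 was seen in FE-PD only. In JB6 and SU-DHL-1 GIMAP6 was at the 5.42th and 2.66th percentile of the untreated array, so it had little room to fall there. The part of the 28S signal in the GIMAP6 difference was not tested. The 3' minus 5' signal of the ACTB control probe sets, a sign of RNA quality, was higher on the treated array in every line but Karpas 299. It went from -0.34 to 0.13 in CCRF-CEM and from -0.59 to -0.21 in Jurkat, and its part in the GIMAP6 difference was not tested.

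Between the cell types, GIMAP6 can be compared within untreated and within treated arrays. These arrays also entered the change for which it was chosen, so its tests are not independent of that choice. Untreated ALCL lines averaged 5.33 ± 2.06 (SD, n = 4) and T-cell lines 8.46 ± 0.22. The difference of -3.13 ± 0.89 (fitted SE), 8.74-fold lower in ALCL, did not pass the test over all genes in limma (adjusted p = 0.0687), and 8.76% of all genes were called in that comparison. This hung on FE-PD: without it the difference was -4.14 with a limma adjusted p of 0.000135. Leaving out the ALCL line already seen to be high gives no support for a difference between the types. With arrays centred on their hybridisation spikes the difference was smaller (-2.79), but the limma adjusted p was 2.37e-08. The spike mean was 7.764 on untreated JB6 and 8.932 to 9.266 on the other untreated arrays. This offset enters every gene alike, so that p is not read as a measure of the spread between lines. Over all 14 alternatives the adjusted p ran from 2.37e-08 to 0.158.

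Treated ALCL lines averaged 4.40 ± 0.36 and treated T-cell lines 4.59 ± 0.46. The difference of -0.19 ± 0.26 (SE) did not pass the test (adjusted p = 0.811 in limma, 0.563 to 0.999 over the alternatives), against 2.88% of all genes called. No equality of the types is shown by this.

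GIMAP5, with GIMAP1-GIMAP5, followed GIMAP6 at a smaller scale on the probe sets 218805_at and 64064_at. The untreated level of 218805_at was 10.56 in FE-PD, 7.67 in JB6, 7.94 in SU-DHL-1 and 8.44 in Karpas 299. It was 8.66 in CCRF-CEM, 10.01 in Jurkat, 9.43 in Molt-3 and 9.95 in Molt-4. FE-PD was the highest of all 8 lines, above the T-cell lines, and the other ALCL lines lay below all 4 T-cell lines.

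After treatment 218805_at was at 8.62 in FE-PD, 8.24 in JB6, 8.40 in SU-DHL-1 and 8.50 in Karpas 299, and at 8.33 in CCRF-CEM, 8.28 in Jurkat, 8.75 in Molt-3 and 8.87 in Molt-4. The 8 lines thus lay within a narrower range than before, and the types overlapped. The difference was -1.93 in FE-PD (3.82-fold lower), -1.73 in Jurkat (3.31-fold), -1.08 in Molt-4, -0.68 in Molt-3 and -0.34 in CCRF-CEM, while JB6 (0.57), SU-DHL-1 (0.46) and Karpas 299 (0.06) were not lower. CCRF-CEM, whose GIMAP6 was 11.4-fold lower, had the smallest difference here among the T-cell lines. The mean was -0.95 ± 0.60 (SD, n = 4) in T-cell lines, -1.64 with the arrays centred on their hybridisation spikes. It was -0.21 ± 1.17 in ALCL lines, 0.36 without FE-PD, and 24.2% of all genes were lower in 4 of 4 T-cell lines.

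The probe set 64064_at was similar in most lines. Its untreated level was 10.11 in FE-PD, 7.85 in JB6, 7.72 in SU-DHL-1 and 7.90 in Karpas 299, and 8.29 in CCRF-CEM, 9.39 in Jurkat, 8.83 in Molt-3 and 9.45 in Molt-4. After treatment it was 8.20, 7.50, 8.06 and 7.97 in the ALCL lines in the same order, and 7.94, 7.90, 8.52 and 8.49 in the T-cell lines. The 2 probe sets thus ranked FE-PD first and the other ALCL lines last without treatment, and the differences were -1.91 in FE-PD and -1.49 in Jurkat at one end and 0.34 in SU-DHL-1 at the other. JB6 went opposite ways on them, with 0.57 on 218805_at and -0.35 on 64064_at. The mean difference on 64064_at was -0.78 ± 0.56 (SD, n = 4) in T-cell lines, -1.46 with spike centring, and -0.46 ± 1.01 in ALCL lines, 0.02 without FE-PD.

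Between the types neither probe set passed the test, in the fit of 22215 single probe sets, in which 7.31% were called untreated and 2.27% treated. Untreated, ALCL minus T was -0.86 ± 0.63 (SE) for 218805_at (limma adjusted p = 0.442, 0.0605 to 0.656 over the alternatives) and -0.59 ± 0.55 for 64064_at (adjusted p = 0.545, 0.0642 to 0.726). Treated, it was -0.12 ± 0.18 (adjusted p = 0.845, 0.681 to 0.988) and -0.28 ± 0.22 (adjusted p = 0.654, 0.519 to 0.902).

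The other 2 GIMAP5 probe sets, 215353_at and 215352_at, which were designed from the same source sequence, did not follow this pattern. For 215353_at, which names GIMAP5 alone, the untreated level was 6.28 in FE-PD, 6.42 in JB6, 6.08 in SU-DHL-1 and 6.13 in Karpas 299, and 6.10 in CCRF-CEM, 5.93 in Jurkat, 5.79 in Molt-3 and 5.96 in Molt-4. Treated, it was 6.10, 6.87, 6.28 and 6.16 in the ALCL lines and 6.18, 6.30, 6.14 and 6.51 in the T-cell lines. FE-PD was not set apart, and no line differed by as much as 1 with treatment. The mean difference in T-cell lines was 0.34 ± 0.20 (SD, n = 4), against 0.14 for the median gene, and it turned to -0.34 with the arrays centred on spikes; that in ALCL lines was 0.12 ± 0.26 and turned to -0.48. The probe set 215352_at ranged from 5.27 to 5.57 untreated and from 5.36 to 6.18 treated, with a mean difference of 0.46 ± 0.23 in T-cell lines, -0.22 with spike centring, and 0.15 ± 0.17 in ALCL lines, -0.46 with spike centring.

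Between the types, 215353_at was 0.28 ± 0.12 (SE) higher in untreated ALCL lines (adjusted p = 0.174 in limma, 0.137 to 0.664 over the alternatives) and 0.07 ± 0.20 in treated ones (adjusted p = 0.917). For 215352_at the differences were 0.11 ± 0.09 (adjusted p = 0.451) and -0.20 ± 0.19 (adjusted p = 0.726). Probe sets of 1 gene thus disagreed in these arrays. With no probe set read against a measured transcript here, which of them follows GIMAP5 was not tested, nor was whether 215353_at and 215352_at read the same strand and region as the other probe sets. Values given for GIMAP5 among all genes rest on 215353_at.

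GIMAP4 was high in a single array, that of untreated Jurkat. Its untreated level was 7.83 in Jurkat, 4.87 in CCRF-CEM, 4.99 in Molt-3 and 5.63 in Molt-4, and 4.86 in FE-PD, 5.13 in JB6, 4.76 in SU-DHL-1 and 4.82 in Karpas 299. Treated, it was 5.23 in Jurkat, 5.03 in CCRF-CEM, 5.55 in Molt-3 and 6.01 in Molt-4, and 5.18, 5.70, 5.20 and 4.69 in the ALCL lines. Jurkat was thus 6.07-fold lower after treatment (-2.60), moving from the 67.7th to the 16.6th percentile of the array, while the other T-cell lines differed by 0.16 to 0.56. FE-PD, high in GIMAP6 and 218805_at, was not high in GIMAP4.

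The mean difference of GIMAP4 was -0.37 ± 1.49 (SD, n = 4) in the T-cell lines, but 0.37 without Jurkat and -1.06 with spike centring. In the ALCL lines it was 0.30 ± 0.30, turning to -0.30 with spike centring. Between the types it was -0.94 ± 0.60 (SE) untreated (limma adjusted p = 0.367, 0.272 to 0.664 over the alternatives), and -0.27 without Jurkat. Treated, it was -0.26 ± 0.27 (adjusted p = 0.728, 0.487 to 0.941), turning to 0.16 with spike centring, and neither difference passed the test.

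**Figure D3:**
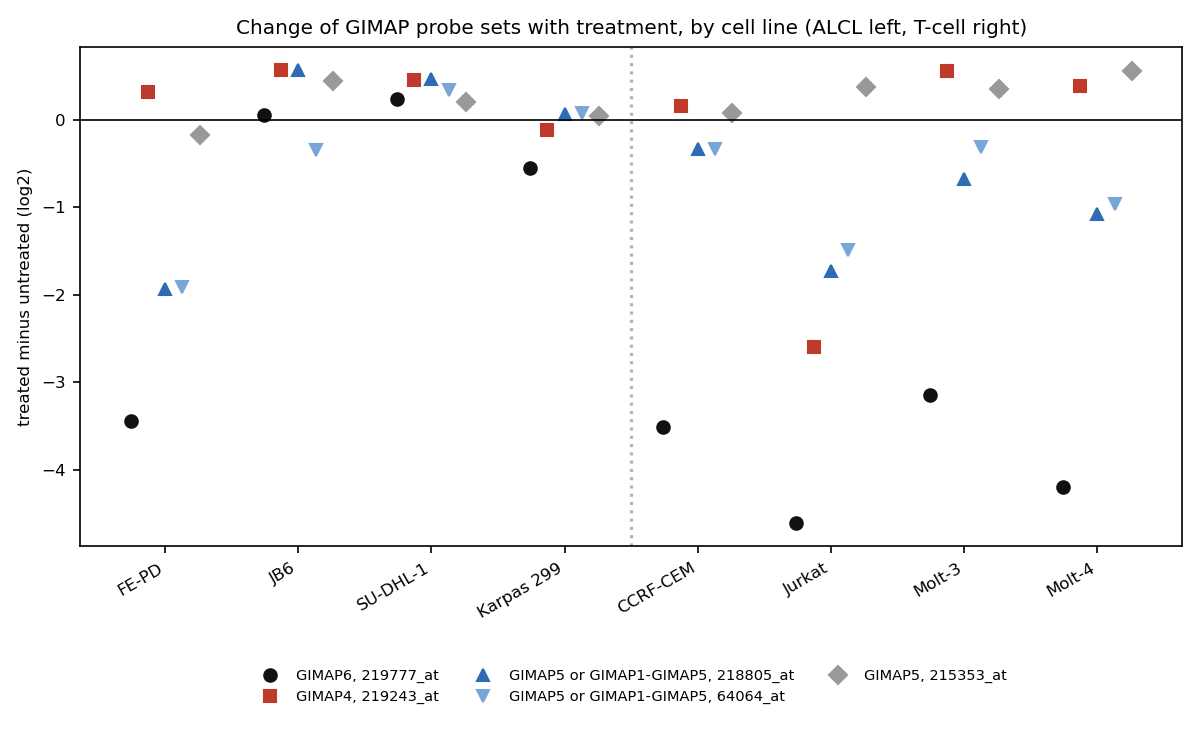
Treated minus untreated level (log2, y axis) of 5 GIMAP probe sets in each cell line (x axis; ALCL left of the dotted line, T-cell right), 1 point per line and probe set. GIMAP6 lies at -3.14 or lower in the T-cell lines and at -3.44 in FE-PD; GIMAP4 is low in Jurkat only (-2.60).

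The members differed in how they ran together over the 16 arrays. Pearson's r of GIMAP6 was 0.847 with 218805_at and 0.833 with 64064_at, and 218805_at and 64064_at had 0.967 with each other. GIMAP6 had 0.316 with GIMAP4 and -0.558 with 215353_at. The 16 arrays are 8 lines measured 2 times and share treatment, so these values describe the arrays.

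**Figure D4:**
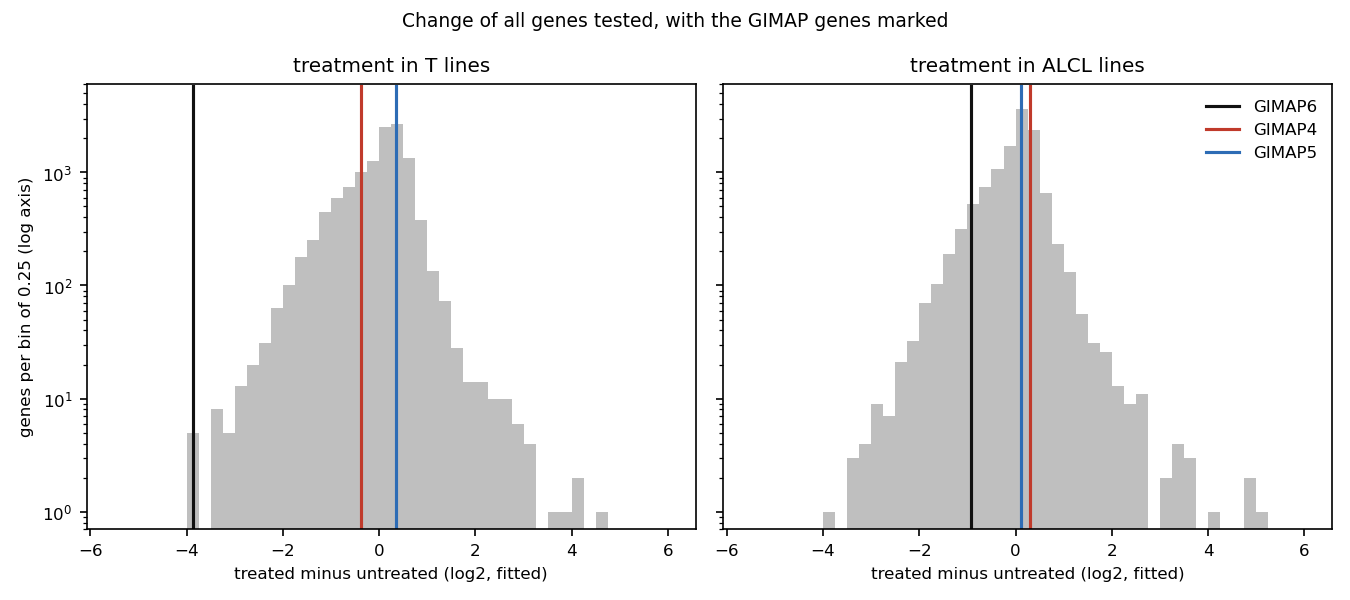
Number of genes (log y axis) by fitted treatment change (log2, x axis, bins of 0.25) among 11963 genes, in T-cell lines (left) and ALCL lines (right), with GIMAP6, GIMAP4 and GIMAP5 (215353_at) as vertical lines. GIMAP6 lies at -3.86 in the lower tail of the T-cell lines and at -0.93 in the ALCL lines; the others lie between -0.37 and 0.34.

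The genes most like GIMAP6 over the 16 arrays were METTL8, a methyltransferase (r = 0.925), CD247, the zeta chain of the T-cell receptor (0.911), SASH3, a lymphocyte adaptor (0.905), CLN6, a membrane protein of the endoplasmic reticulum (0.895), and SH2D1A, the adaptor of SLAM receptors (0.894). After group means were subtracted, r was 0.715, 0.793, 0.635, 0.596 and 0.488, and CD247 kept the highest place of these at rank 68. CD247 shared with GIMAP6 a high untreated level in FE-PD: it was 10.80 there, against 9.92 to 10.81 in the T-cell lines, and 7.72 after treatment. Unlike GIMAP6 it was also at 9.34 in JB6 and 9.31 in Karpas 299.

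Likeness to GIMAP6 over the same arrays chose these genes, so their treatment differences are a description without a test. In the T-cell lines the difference was -2.92 ± 0.29 (fitted SE) for SH2D1A, -2.66 ± 0.28 for SASH3, -2.21 ± 0.39 for CD247, -1.08 ± 0.16 for CLN6 and -0.67 ± 0.14 for METTL8. In the ALCL lines it was -1.43 ± 0.39 for CD247, -0.42 ± 0.28 for SASH3, -0.34 ± 0.29 for SH2D1A, -0.32 ± 0.16 for CLN6 and -0.29 ± 0.14 for METTL8.

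The gene most opposed to GIMAP6 was ID2, an inhibitor of the E-protein transcription factors that drive early T-cell development (r = -0.939, and -0.804 after group means). Its untreated level was 5.18 in CCRF-CEM, 6.34 in Jurkat, 6.29 in Molt-3 and 5.38 in Molt-4, and 6.79 in FE-PD. In JB6 it was 10.21, in SU-DHL-1 11.72 and in Karpas 299 11.26. After treatment it was between 8.97 and 11.70 in all 8 lines. FE-PD thus stood with the T-cell lines in both genes, with a difference of 4.54 in ID2, while JB6, SU-DHL-1 and Karpas 299 differed by -0.15 to 0.03.

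Opposition to GIMAP6 over the same arrays chose ID2 and the genes next to it, so these differences carry no test either. That of ID2 was 4.11 ± 0.66 (fitted SE) in the T-cell lines and 1.10 ± 0.66 in the ALCL lines. NPC1, a transporter of lysosomal cholesterol, was next (r = -0.877), with a difference of 2.87 ± 0.32 in the T-cell lines. The third, ID2B, is a copy of ID2 (r = -0.860), so its probe set may read ID2 itself, and its difference in the T-cell lines was 0.25 ± 0.12.

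**Figure D5:**
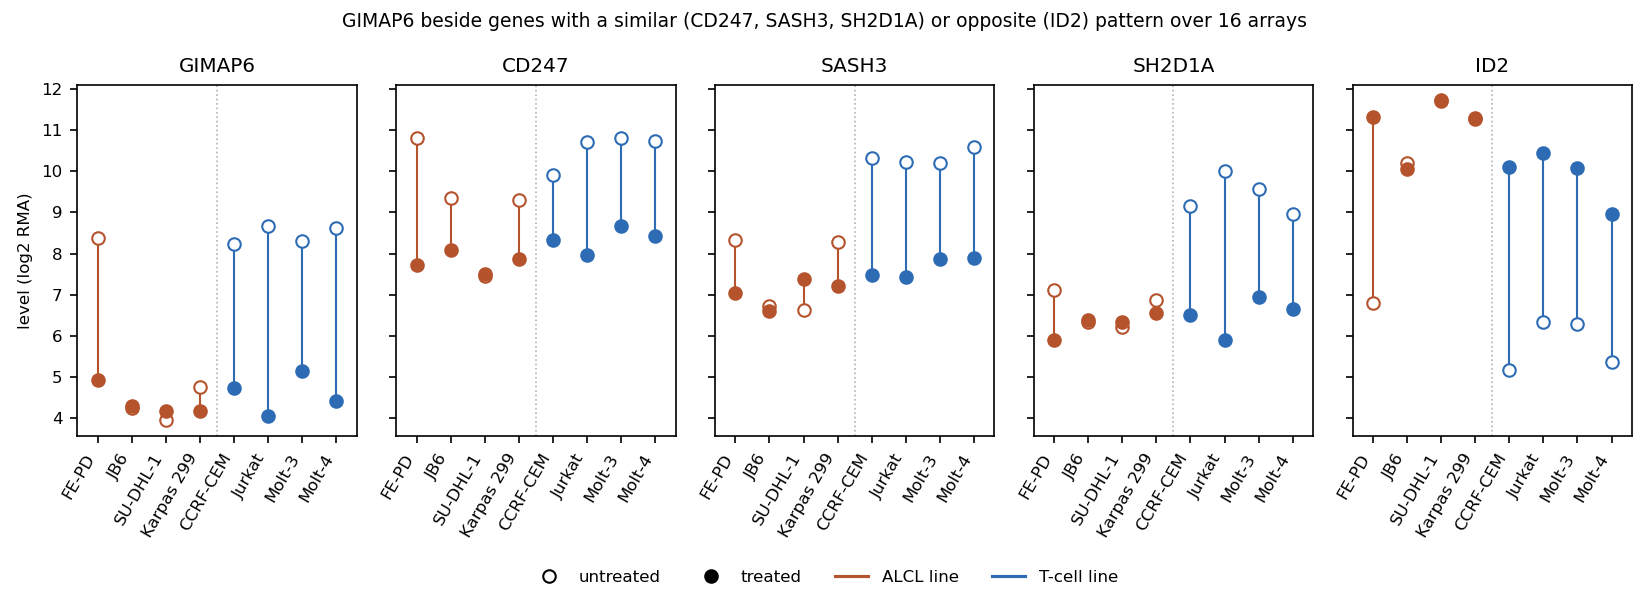
Level (log2, y axis) of GIMAP6 and of 4 genes from its lists of highest and lowest r, in 8 cell lines (x axis), open circles untreated and filled circles treated. ID2 is the reverse of GIMAP6: it starts at 5.18 to 6.79 in the T-cell lines and FE-PD and at 10.21 or higher in the other ALCL lines.

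The genes most like the other members differed from these. For 218805_at they were GALNT12 (r = 0.849), the chemokine receptor CXCR4 (0.834), the lymphocyte adaptor LAX1 (0.824), ADCK2 (0.818) and TESC (0.812), and the lowest were ID2B (-0.851), MCAM (-0.789) and CASK (-0.771). CXCR4 was at 11.83 in untreated FE-PD and 11.42 to 12.55 in the untreated T-cell lines, but also at 10.13 in Karpas 299.

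For GIMAP4 the highest were TOM1L1 (0.953), CTSG (0.925), CX3CR1 (0.904), GLRB (0.900) and KRT1 (0.883), and the lowest CANX (-0.820), SLC37A4 (-0.748) and MICB (-0.719). These rest largely on untreated Jurkat: without the 2 arrays farthest from the median of GIMAP4, the 5 highest had 0.743, 0.536, 0.488, 0.416 and 0.354. TOM1L1 was at 6.00 there and between 3.84 and 5.01 on the other 15 arrays. For 215353_at the highest were SLC28A1 (0.969), FKBP10 (0.959), HSPB2 (0.956), NUDT7 (0.950) and ACKR2 (0.942), and the lowest the histone methyltransferase EZH2 (-0.911), the receptor NOTCH1 (-0.909) and HACD3 (-0.907).

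Transcription factors that have been described at the GIMAP cluster in T-cell leukaemia, or that define this leukaemia, formed a list of 18. Of these 16 were measured, and 11 fell and 0 rose in the T-cell lines in limma (0 higher at an unadjusted p under 0.05), where 41.9% of all genes were called, 20.2% lower and 21.7% higher. Their median difference was -1.36, against 0.14 for all genes. The smallest adjusted p belonged to BCL11B, a zinc finger factor of T-cell commitment (-2.75 ± 0.17 SE, adjusted p = 2.67e-05), LMO2, a bridge of the TAL1 complex (-1.48 ± 0.17, adjusted p = 0.000321), MYB (-3.24 ± 0.39, adjusted p = 0.00035) and CBFB, the partner of RUNX proteins (-1.52 ± 0.19, adjusted p = 0.00043).

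TAL1 itself was not called in the T-cell lines (-0.32 ± 0.17, adjusted p = 0.159), nor was GATA3 (-0.28 ± 0.24, adjusted p = 0.347). In the ALCL lines 2 of the 16 fell and 0 rose (6 were lower and 1 higher at an unadjusted p under 0.05). The 2 were MYB (-2.78 ± 0.39, adjusted p = 0.0012) and CBFB (-1.06 ± 0.19, adjusted p = 0.00399), against 13.4% of all genes lower and 8.04% higher, and with spike centring 6 fell.

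FE-PD stood with the ALCL lines in some of these factors and above the other ALCL lines in others. LMO2 was at 4.63 in untreated FE-PD, within the other ALCL lines (4.36 to 5.08) and below the T-cell lines (6.04 to 6.80), and at 4.75 after treatment. BCL11B was at 6.06 in FE-PD against 8.53 to 9.80 in the T-cell lines, and GATA3 at 7.38 against 9.72 to 11.14. LYL1, a relative of TAL1, was at 7.41 in FE-PD, above the other ALCL lines (6.23 to 6.63). Among the T-cell lines it was at 8.07 in CCRF-CEM, but at 6.33 to 6.73 in Jurkat, Molt-3 and Molt-4. FLI1, an ETS factor, was at 8.65 in FE-PD, above the T-cell lines (7.59 to 8.20) and the other ALCL lines (6.83 to 7.56), and at 7.35 after treatment. In the T-cell lines FLI1 fell by 1.00 ± 0.22 (SE; limma adjusted p = 0.00727). Neither LYL1 nor FLI1 was called between the untreated types (limma adjusted p = 0.723 and 0.584), so they do not place FE-PD with either type.

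Between untreated types, 6 of the 16 factors were lower in ALCL and 0 higher in limma (0 higher also at an unadjusted p under 0.05), against 5.58% and 3.18% of all genes, with a median of -1.31 against 0.04. BCL11B differed by -3.96 ± 0.37 (SE; limma adjusted p = 0.00081), LMO2 by -1.81 ± 0.21 (adjusted p = 0.00205) and GATA3 by -3.01 ± 0.40 (adjusted p = 0.00408). TAL1 differed by -0.68 ± 0.14 (adjusted p = 0.0263), a difference that missed the threshold in 5 of 14 alternatives, which included leaving out JB6, Karpas 299, Molt-3 or Molt-4 (highest adjusted p = 0.674). Leaving out any of these 4 lines also reduced the count from 6 to 3.

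Genes on both sides of the GIMAP cluster were also measured. Of 27 neighbours 18 were measured, and 2 fell and 4 rose in the T-cell lines, with a median of 0.19. Of all genes 20.2% were lower and 21.7% higher there, so the share of neighbours that rose was close to that over all genes. Without Molt-3 or without Molt-4, 1 fell and 1 rose. REPIN1, a zinc finger gene 3 places from the cluster, fell in both types, with a change of -1.81 ± 0.13 (SE) in T-cell lines (limma adjusted p = 3.82e-05) and -1.17 ± 0.13 in ALCL lines (adjusted p = 0.000438), and it was lower in each of the 8 treated lines (-1.07 to -2.11), JB6 and SU-DHL-1 included, where GIMAP6 was not lower. TMEM176A, a membrane protein gene 2 places away on the other side, was 0.58 ± 0.13 higher in T-cell lines (adjusted p = 0.00725), but -0.10 with spike centring. Between the types 0 of the 18 neighbours were called in limma, untreated or treated, and at an unadjusted p under 0.05 there were 0 untreated and 1 treated.

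Of 17 large GTPases, to whose wider class the GIMAP proteins are compared, 10 were measured, and 4 rose and 1 fell in the T-cell lines and 3 rose and 1 fell in the ALCL lines. The shares over all genes were 21.7% higher and 20.2% lower in the T-cell lines and 8.04% and 13.4% in the ALCL lines. With spike centring 0 rose in either type. Without CCRF-CEM or without Molt-3, 2 rose in the T-cell lines, without Molt-3 or Molt-4 0 fell, and without SU-DHL-1 1 rose in the ALCL lines. GBP2, an interferon-induced GTPase, was at 5.80 to 5.89 in the untreated T-cell lines and 8.25 to 8.99 in the untreated ALCL lines, FE-PD (8.40) among them, a difference of 2.78 ± 0.17 (SE; limma adjusted p = 8.19e-05).

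Genes of T-cell survival and quiescence, the setting in which GIMAP5 is best known, were called with treatment in the T-cell lines about as often as all genes. Of 22 such genes 18 were measured, and 4 rose and 4 fell in the T-cell lines, against 21.7% higher and 20.2% lower over all genes; 1 rose without Molt-3. STAT5B, the transducer of survival cytokines, fell by 1.71 ± 0.16 (SE; limma adjusted p = 0.000128) and IL2RG, the shared receptor chain, fell by 2.05 ± 0.41 (adjusted p = 0.00412). LEF1 was lower too (-2.72 ± 0.40, limma adjusted p = 0.000925). Those that rose were FOXO1 (0.81 ± 0.15, limma adjusted p = 0.00256), FOXO3, TOB1 and BTG1, and FOXO1 was not called with spike centring. IL7R (-0.43, adjusted p = 0.377), KLF2 (0.12, adjusted p = 0.837) and S1PR1 (-0.53, adjusted p = 0.051) were not called there. Over the alternatives their limma adjusted p ran from 0.0378 to 0.865, 0.0204 to 0.997 and 0.00763 to 0.145. The mean of KLF2 joined -2.18 in Jurkat with 0.82 to 0.94 in the other T-cell lines. That of IL7R joined -1.95 in CCRF-CEM with -0.59 to 0.56 in the others. KLF2 was high in untreated Jurkat alone (9.52, against 6.46 to 6.79 in the other T-cell lines), as was GIMAP4, and was at 7.34 after treatment. With treatment in the ALCL lines 2 of the 18 genes rose and 4 fell in limma, against 8.04% and 13.4% of all genes. Between the untreated types 4 were higher and 1 lower in ALCL, against 3.18% and 5.58%. Between the treated types 1 was higher, where 2.88% of all genes were called.

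Of 18 genes of the BCL2 family, which governs cell death, 16 were measured, and 4 fell and 2 rose in the T-cell lines, where 20.2% of all genes were lower and 21.7% higher. None rose without Jurkat, Molt-3 or Molt-4 in turn (0 of 16), and 1 rose without Karpas 299. BID, a promoter of death, fell by 3.08 ± 0.38 (SE; limma adjusted p = 0.000407), BCL2L13 fell by 1.22 ± 0.13 (adjusted p = 0.000169) and BCL2L1 fell by 1.20 ± 0.19 (adjusted p = 0.00126). BCL2, the survival factor tied to GIMAP5, was 0.23 ± 0.15 higher in T-cell lines (adjusted p = 0.233) and 0.07 ± 0.15 in ALCL lines (adjusted p = 0.762).

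The T-cell markers give the setting of the GIMAP6 change. Of the 10 markers 8 fell and 0 rose in the treated T-cell lines in limma (0 higher at an unadjusted p under 0.05), with a median of -2.25, against 20.2% of all genes lower and 21.7% higher. In the ALCL lines 0 were called, where 21.4% of all genes were, and at an unadjusted p under 0.05 1 was higher and 1 lower. LCK, the kinase of the T-cell receptor, was at 6.29 in untreated FE-PD, near the other ALCL lines (5.71 to 5.88) and below the T-cell lines (10.70 to 12.12). CD3E was at 7.96 in FE-PD, at 7.20 to 7.69 in the other ALCL lines and at 10.57 to 10.91 in the T-cell lines. FE-PD was thus near the other ALCL lines in LCK and CD3E, at the T-cell level in GIMAP6, CD247 and CXCR4, and above both in 218805_at and 64064_at. CD247 and CXCR4 were named for their likeness to GIMAP6 and 218805_at over the same arrays, so their levels in FE-PD are no separate observation. Neither was called between the untreated types (limma adjusted p = 0.232 and 0.127). LCK and CD3E were picked after their values were seen, and the other T-cell markers are not given by line here. They may place FE-PD otherwise, so LCK and CD3E do not stand for the list. The part of the fall of T-cell markers in the GIMAP6 difference was not tested.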

How the data were processed

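RNA of 8 cell lines, each untreated and treated, was hybridised to HG-U133A arrays. The authors deposited log2 values made with RMA and R 2.10.1 according to the submitters' processing notes (per the labels). The sources used here give no genome build and no detection calls. Probe sets were named from the platform's annotation: of 22283, 19065 had 1 symbol, 1043 several, 2107 none, and 68 were controls. For each of 11963 genes the probe set with 1 symbol and the highest mean was used, and 11954 were in the RefSeq table. Groups came from the labels.

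Differences were tested two-sided with limma 3.58.1 in R 4.3.3, with Benjamini-Hochberg adjustment, and a gene is called at an adjusted p under 0.05. Treatment effects came from 1 fit of 16 arrays in which each cell line was a block, since the same line was measured in both conditions; comparisons of types used 8 arrays each. The 4 probe sets 215352_at, 215353_at, 218805_at and 64064_at were tested between types among 22215 probe sets, and 215353_at as GIMAP5 also among genes, which is the value given. Untreated arrays serve both as controls of the treatment and in the untreated comparison.

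Genes named are the members, for each member (GIMAP5 by 215353_at, and 218805_at added later) the 5 highest and 3 lowest Pearson r, up to 4 called genes of each list with the smallest adjusted p, and 8 genes of T-cell biology; RUNX1 had no probe set of its own. The results of 1 further gene list are not reported here. FLI1, LYL1, ALK, LCK, CD3E and GBP2, and the levels of named genes in single lines, were chosen for mention after their values were seen. The members and lists were chosen with earlier results of these data known. Simulated data were used to test the scripts. Alternatives were other scalings, filters and probe set rules, a fit with no replicate block, a random block, and leaving out each line; those for single probe sets and lists were chosen after seeing the data. Protein sequences were not used here.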

Additional observations from a re-analysis of the deposited data

Results flagged for a closer look

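A line far from the other 3 of its group was looked for in 36 groups of 4 values, of which chance flags about 1 in 20, and 5 were found. Untreated FE-PD had 10.11 on 64064_at, with the gap to the next ALCL line covering 0.924 of the group's range. Treated FE-PD had a GIMAP6 level of 4.93, above JB6 at 4.30 (gap over range 0.830, barely past the critical value). The GIMAP4 change in Jurkat was -2.60, against 0.16 to 0.56 in the other T-cell lines (0.874). On 215352_at Molt-4 had the highest treated level, 6.18 (0.845), and the largest change, 0.81 (0.868), of the T-cell lines. The treated Molt-4 array was among those with a high 28S control, at 14.16, and its part in these values was not tested.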

How the results depend on the processing

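Counts of called genes moved with the choice of probe sets, the scaling, the replicate block and single lines, and the cause was not tested beyond what each setting does. Fitting each probe set by itself, which tests more features, gave 1625 calls untreated (1048 in the main analysis), 8607 in treated T-cell lines (5018) and 4072 in treated ALCL lines (2566). Centring on hybridisation spikes moved the median gene from 0.14 to -0.54 in T-cell lines and from 0.09 to -0.52 in ALCL lines, left 3006 calls in T-cell lines and 64 for the difference of the treatment effects (201), and took the share of higher calls in T-cell lines from 51.8% to 2.1% and in ALCL lines from 37.5% to 3.57%, and between types from 36.3% to 75% untreated and from 47% to 92.8% treated. With medians alone centred, the share in T-cell lines was 36%. With no replicate block, so without the pairing by cell line, 1440 genes were called in ALCL lines and 62 for the difference of effects. Leaving out 1 line gave 455 to 1195 calls untreated (455 without Molt-3, 476 without Molt-4), 130 to 348 treated (130 without Molt-3, 203 without CCRF-CEM, 217 without Molt-4), 2520 to 5493 in T-cell lines (2520 without Molt-3, 2572 without Molt-4), 1432 to 2648 in ALCL lines (1432 without JB6, 1526 without SU-DHL-1) and 67 to 195 for the difference of effects (67 without Molt-3, 88 without Molt-4).

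Among the members, GIMAP6 between untreated types became a call with spike centring (-2.79) and without FE-PD (-4.14), with a leave-one-out range of -4.14 to -2.67. Neither call is support for a difference, for the reasons given with that result. The T-cell difference of GIMAP6 was -4.55 with spike centring. Spike centring reversed GIMAP4 in ALCL lines (-0.30), GIMAP5 in T-cell lines (-0.34), 215352_at in T-cell lines (-0.22) and TMEM176A in both (-0.10), and moved GIMAP5 in ALCL lines to -0.48, 218805_at in T-cell lines to -1.64 and 64064_at to -1.46; median and SD scaling gave GIMAP5 0.14 in T-cell lines. Spearman's rho in place of r put CD247 at rank 11, SASH3 at 16, SH2D1A at 6, METTL8 at 139 and CLN6 at 257 among the genes most like GIMAP6, and ID2 at 30 among the most opposed. With 1 array for a line and condition, small differences of single lines cannot be told from array noise.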
